A study of Mus musculus with 23 samples.

Results

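Small nucleolar RNAs (snoRNAs) are short RNAs of the nucleolus that guide chemical modification of ribosomal RNA. Box C/D snoRNAs, named Snord in mouse, pair with ribosomal RNA and direct 2′-O-methylation by fibrillarin, whereas H/ACA snoRNAs, named Snora, direct pseudouridylation by dyskerin. Most lie in introns of host genes and are released when the intron is processed. A few (Snord14, known as U14, Snord118 or U8, Snord22 or U22, and Snora73 or U17) act in cleavage of the ribosomal RNA precursor. The members were all genes whose symbol begins with Snord or Snora followed by a digit, which gave 141 of the 53715 genes in each table, 99 Snord and 42 Snora. The choice used the symbol only and no measured value.

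The study asked how the RNA-binding protein LIN28 affects pluripotent mouse cells, and expression was given as TPM, the share of a library's transcripts scaled for length. The 23 libraries fell into 9 groups in 3 tables. The embryonic stem (ES) table held 3 libraries each of wild-type (WT) cells, of cells labelled Lin28a knockout (Lin28a-null), of cells labelled Lin28b knockout, and of an ilet7 line, from which let-7 is induced, without and with doxycycline for 3 days. The induced pluripotent stem (iPS) table held 3 libraries of WT and 3 of Lin28a/b double knockout (DKO) cells, all reprogrammed from mouse embryonic fibroblasts. The embryo table held 1 pool of C57BL/6J embryos titled WT and 1 titled siLin28, from zygotes injected with small interfering RNA, and the treatment label of both pools reads Lin28 knockdown, so the titles set the groups. ES and iPS cells were grown on fibroblast feeders in LIF/2i medium, with feeders depleted before lysis, and each knockout line was compared with a separate WT line, so genotype and line cannot be told apart.

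The targeted genes were read first as a check of the labels. Lin28a lay between 31.5 and 61.2 TPM in WT ES cells and between 14.6 and 20.96 TPM in Lin28a-null cells, lower but not absent. Lin28b lay between 3.63 and 5.18 TPM in WT ES cells and between 8.69 and 8.81 TPM in Lin28a-null cells. In the cells labelled Lin28b knockout it lay between 12.5 and 13.8 TPM, higher rather than lower than in WT. These are therefore called the libraries labelled Lin28b-null. Lin28a lay between 66.6 and 81.0 TPM there, above every WT ES library. In the iPS cells labelled DKO, Lin28a was lower (9.51 to 11.6 against 16.0 to 36.2 TPM) and Lin28b was higher (10.3 to 11.6 against 2.16 to 4.14 TPM). RNA level does not show whether the protein is made, so these values do not decide whether any of the knockout labels is right. Lin28a was 15.9 TPM in the control embryos and 3.03 TPM in the siLin28 embryos. The 10 pluripotency markers, Pou5f1, Nanog and Sox2 among them, summed to between 5415 and 6768 TPM in every ES library. In iPS libraries they summed to between 3880 and 4181 TPM. Single markers moved within these sums by the tests given below. In Lin28a-null cells 2 rose and 3 fell, and in the libraries labelled Lin28b-null 3 rose and 1 fell. With doxycycline 5 rose and 2 fell, and in the iPS cells labelled DKO 2 rose and 2 fell. Between the null lines 5 stood higher and 5 lower. Their part in the snoRNA changes was not tested. In whole cultures, fewer cells of a type and less RNA per cell cannot be told apart.

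The 13 snoRNAs printed here are those that the comparisons turn on, drawn from GENCODE M21 transcripts on mm10 (GRCm38) and printed 5′ to 3′ on the strand of the snoRNA. In the Snord sequences the capitals mark the C box (NTGATGA, searched in the first 20 bases) and the D box (CTGA, searched in the last 20 bases). Snord53 holds no CTGA in its last 20 bases, so no D box is marked in it. In the Snora sequences the capitals mark the ACA triplet, searched in the last 10 bases. First come the copies of Snord14 in Hspa8, the constitutive heat shock cognate gene, at chr9:40803583-40803668, chr9:40803995-40804080 and chr9:40804748-40804837, all on the plus strand.
Snord14c: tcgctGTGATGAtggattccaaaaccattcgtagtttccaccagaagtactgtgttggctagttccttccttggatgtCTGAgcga
Snord14d: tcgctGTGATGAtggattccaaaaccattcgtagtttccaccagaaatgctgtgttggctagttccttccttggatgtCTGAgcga
Snord14e: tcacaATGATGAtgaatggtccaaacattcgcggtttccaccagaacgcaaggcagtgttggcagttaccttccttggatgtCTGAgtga

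Snord14c and Snord14d shared 84 of 86 aligned bases, and Snord14c and Snord14e 74 of 90, and only uniquely mapped reads were kept, so reads that fit both copies of the first pair in particular are left out, and the level of each copy is uncertain. The other Snord members shown rose or fell in the ES lines. Snord12 lies in the non-coding host Zfas1 (chr2:167065276-167065365, plus strand). Snord49b and Snord49a lie in turn in 2410006H16Rik (chr11:62603079-62603150 and chr11:62603450-62603521, plus strand). Snord53 lies in Wdr43 (chr17:71640879-71640956, plus strand), and Snord80 in the non-coding host Gas5 (chr1:161037604-161037680, plus strand).
Snord12: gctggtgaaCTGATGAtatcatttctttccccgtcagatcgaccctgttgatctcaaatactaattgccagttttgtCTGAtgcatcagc
Snord49a: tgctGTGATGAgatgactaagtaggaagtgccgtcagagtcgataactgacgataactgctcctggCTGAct
Snord49b: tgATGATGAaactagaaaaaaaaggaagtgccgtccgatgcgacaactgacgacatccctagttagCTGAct
Snord53: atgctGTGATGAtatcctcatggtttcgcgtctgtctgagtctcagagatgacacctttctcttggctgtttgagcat
Snord80: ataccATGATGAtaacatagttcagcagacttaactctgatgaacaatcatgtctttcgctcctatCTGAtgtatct

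The human counterparts of Snord12, Snord49a, Snord49b and Snord80 guide methylation of 28S ribosomal RNA. The Snora members shown rose in the ES lines or fell in the iPS cells labelled DKO. Snora17 has no host gene on its strand in the annotation (chr2:26639190-26639321, minus strand). Snora24 lies in the non-coding host Snhg8 (chr3:123507937-123508066, minus strand) and Snora41 in Eef1b2, a translation elongation factor gene (chr1:63179004-63179135, plus strand). Snora61 lies in the non-coding host Snhg12 (chr4:132310240-132310369, plus strand) and Snora70 in the ribosomal protein gene Rpl10 (chrX:74272484-74272620, plus strand).
Snora17: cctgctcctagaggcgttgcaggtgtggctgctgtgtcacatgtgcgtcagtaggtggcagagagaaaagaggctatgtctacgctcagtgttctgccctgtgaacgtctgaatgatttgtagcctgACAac
Snora24: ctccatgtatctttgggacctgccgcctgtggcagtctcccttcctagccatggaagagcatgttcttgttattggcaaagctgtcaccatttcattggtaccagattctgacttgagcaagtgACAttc
Snora41: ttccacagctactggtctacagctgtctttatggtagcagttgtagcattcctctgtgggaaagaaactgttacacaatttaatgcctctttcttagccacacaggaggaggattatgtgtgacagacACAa
Snora61: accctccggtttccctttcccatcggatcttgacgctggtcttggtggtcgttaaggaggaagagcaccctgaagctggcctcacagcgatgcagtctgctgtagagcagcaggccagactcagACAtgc
Snora70: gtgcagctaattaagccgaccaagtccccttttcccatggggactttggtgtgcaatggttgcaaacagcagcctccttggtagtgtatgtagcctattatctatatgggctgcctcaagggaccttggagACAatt

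Across all members the box letters followed the names. Both the C and the D box were found in 68 of 99 Snord members, against 0.0493% of 140008 other transcripts searched in the same windows, and a D box, with or without a C box, in 97 of 99 Snord members, against 8.97% of the other transcripts. The ACA triplet was found in 40 of 42 Snora members (95.2%), against 14.0% of the other transcripts. An H box (ANANNA in the middle of the RNA) was found in 39 of 42 Snora members, and its letters were as frequent in the other transcripts, at 92.9%. One member, Snora26 with the identifier ENSMUSG00000106943, is the long non-coding RNA Dancr in the annotation and is 2347 bases long. The annotation placed 134 members within a host gene on their own strand, of which 64 overlapped a host exon at least in part, and reads of the host can then be counted for the snoRNA.

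More snoRNAs, at higher levels, were detected in the iPS table than in the ES and embryo tables. Of the 141 members, 72 reached a mean of 1 TPM in the ES table (46 Snord and 26 Snora), 98 in the iPS table (63 and 35) and 49 in the embryo table (27 and 22). The median of the members' mean levels was 1.201 TPM in the ES table, 22.2 TPM in the iPS table and 0.225 TPM in the embryo table. A mean of 100 TPM was reached by 38 members in the iPS table and by 0 in the others. The cell libraries were made from poly-T selected RNA by random priming, and the embryo libraries by amplification from oligo-dT, so snoRNAs, which lack a poly-A tail, were not the target of either. Other RNAs without a poly-A tail, such as Rn7sk, Rmrp and Rpph1, moved with this difference. The 17 listed summed to between 11.3 and 507 TPM per ES library, to 1365 and 1591 TPM in the embryo pools and to between 26287 and 34691 TPM per iPS library. The highest ES value was that of 1 ilet7 control library, in a group with a median of 25.3 TPM. Their part in the levels was not tested, and the tables were therefore read only within themselves.

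Different snoRNAs led each table. Among Snord members, Snord12 had the highest mean in the ES table (93.0 TPM, with libraries from 36.4 to 260), followed by Snord32a (45.1), Snord34 (44.7), Snord49a (43.3) and Snord80 (42.8 TPM). In the iPS table the leading Snord members were Snord17 (1174 TPM), Snord15a (648), Snord15b (572), Snord13 (289) and Snord14e (216 TPM). Among Snora members, Snora61 led the ES table with a mean of 81.1 TPM, ahead of Snora68 (56.6) and Snora31 (42.3 TPM). Snora73b, which acts in processing of the 18S precursor, led the iPS table with 1831 TPM, ahead of Snora57 (666) and Snora43 (622 TPM). Snora68 led the embryo table with 75.1 TPM, where Snord80 was the highest Snord with 44.6 TPM.

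Of Snord13 and the snoRNAs of precursor cleavage, some were near 0 in ES cells and others were measurable there. Snord118, Snord13 and Snord22 reached no more than 0.597, 1.22 and 0.0055 TPM in any ES library, whereas Snord14e lay between 3.28 and 34.8 TPM, Snora73a between 2.10 and 15.7 TPM and Snora73b between 0 and 3.26 TPM. In WT iPS cells Snord118 was at 145, 239 and 315 TPM, Snord13 at 351, 304 and 341 TPM and Snord22 at 78.7, 196 and 383 TPM. The imprinted Snord116 copies of Snhg14, 17 in number, were at 0 in every library of the 3 tables. Snord64, of the same imprinted region, lay between 0.0960 and 0.438 TPM in ES cells and between 0.951 and 1.83 TPM in iPS cells. Snora81 and Snora75, for which the study designed oligonucleotides, stayed below 1 TPM in every ES and iPS library. Snora16a, the other such snoRNA, was detected in all cell libraries.

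**Figure D1:**
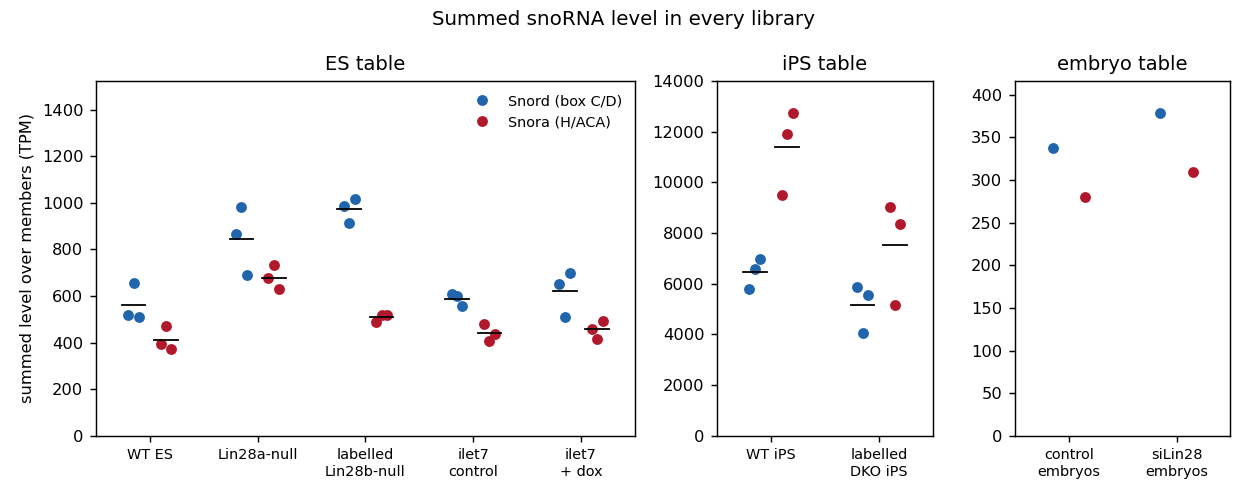
Summed TPM of all Snord members and of all Snora members in each library, by group, with 1 panel per table and its own axis. Each point is 1 library and the bar is the group mean. In the ES table the Snora sums of the 3 Lin28a-null libraries (629 to 732 TPM) lie above all others.

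Summed over members, both classes were higher in the Lin28a-null ES libraries and in the libraries labelled Lin28b-null than in WT libraries, with no test. The summed Snora level was 396, 469 and 374 TPM in WT ES libraries and 677, 732 and 629 TPM in Lin28a-null libraries, so the groups did not overlap, and the means of the log2 sums differed by 0.72. In the libraries labelled Lin28b-null the summed Snora level was 490, 519 and 518 TPM, above every WT library as well (difference of the mean log2 sums 0.31). The summed Snord level was 518, 656 and 511 TPM in WT and 866, 982 and 692 TPM in Lin28a-null libraries (difference of the mean log2 sums 0.59). In the libraries labelled Lin28b-null it was 987, 915 and 1016 TPM (difference 0.80), and without Snord12 the difference was 0.52. With doxycycline the differences of the mean log2 sums were 0.06 for Snord and 0.05 for Snora, and the libraries overlapped. In the iPS cells labelled DKO they were −0.33 and −0.63, with replicate 2 the lowest of the 6 libraries for both (4067 TPM for Snord and 5143 TPM for Snora). The Snora to Snord ratio of the sums was between 0.497 and 0.908 in ES libraries and between 1.26 and 1.83 in iPS libraries.

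Lin28a-null ES cells were compared with WT ES cells to find which snoRNAs differ with the genotype. In limma on log2(TPM + 1), over every gene whose libraries averaged 1 TPM or more, 71 members were tested and 25 rose (15 Snord and 10 Snora) at an adjusted p under 0.05, while 1 fell, against 20.4% of all tested genes that rose and 17.8% that fell. The other 70 members were below the filter. Of the 71, 5 passed the filter through 1 group only, with a mean under 1 TPM in the other, and the risers Snord14c and Snora30 are among them. Such a member could be tested only because it was high in 1 group. Among the 66 members averaging 1 TPM or more in both groups 23 rose, against 18.3% of all such genes. The median log2 change was 0.68 for Snord and 0.51 for Snora, against 0.02 over all genes, and 64 of the 71 changes were positive. Every null library lay above every WT library for 28 members, against 27.7% of all genes. The labels do not say that replicates are separate cultures, so p-values measure the spread between these libraries only.

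**Figure D2:**
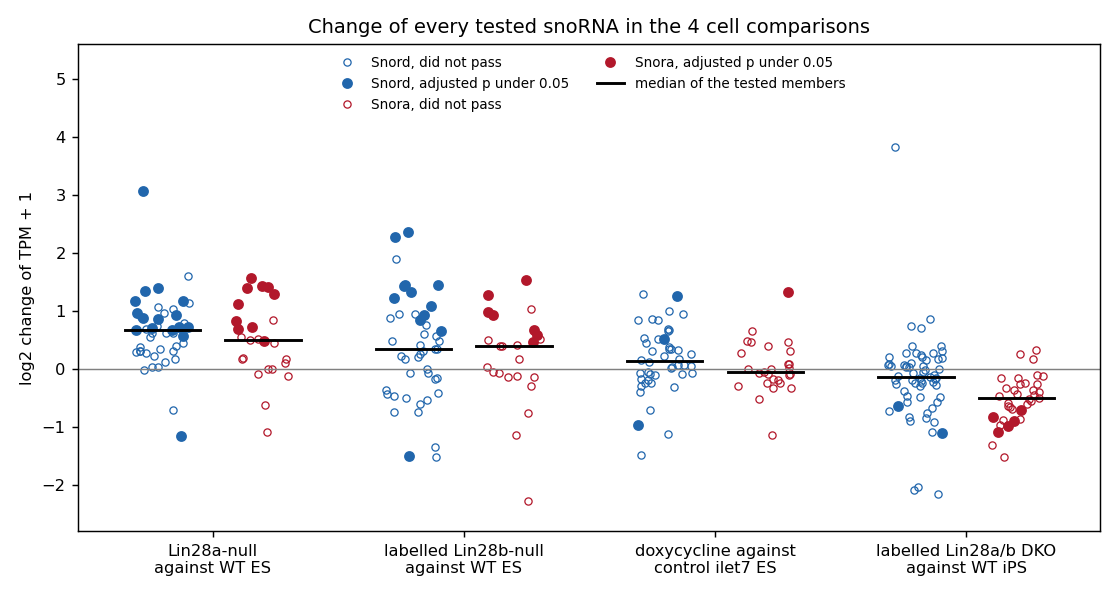
log2 change of TPM + 1 for every tested snoRNA in the 4 cell comparisons, Snord and Snora apart. Filled points passed an adjusted p of 0.05, open points did not, and the bar is the median of the tested members, 0.68 for Snord and 0.51 for Snora in Lin28a-null cells and −0.14 and −0.49 in the iPS cells labelled DKO.

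Snord14c, which entered the test through the null libraries only, had the largest change. It was at 0.00811, 0.0140 and 0.173 TPM in WT and at 9.76, 6.81 and 7.43 TPM in Lin28a-null libraries. Every null library lay far above every WT library (log2 change 3.07 ± 0.19 (SE), adjusted p = 0.000104, n = 3 per group). Its near copy Snord14d jumped within groups instead, at 0.0161, 7.56 and 0.0115 TPM in WT and 0.0272, 14.9 and 0.0303 TPM in Lin28a-null libraries, so the level of either copy alone is uncertain. Snord14e, the most abundant copy, was at 9.82, 13.3 and 6.99 TPM in WT and 27.5, 34.8 and 19.1 TPM in null libraries (1.35 ± 0.28, adjusted p = 0.00862). Summed over the 3 copies, which leaves the split between them aside, WT libraries held 9.84, 20.9 and 7.18 TPM and Lin28a-null libraries 37.3, 56.5 and 26.6 TPM, without overlap. The host Hspa8 did not pass the test, with a log2 change of 0.09.

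Among the H/ACA snoRNAs, several abundant members rose and others did not pass. Snora41 was at 28.4, 27.3 and 21.6 TPM in WT and 72.7, 75.5 and 60.9 TPM in Lin28a-null libraries (1.40 ± 0.13, adjusted p = 0.000492). Its host Eef1b2 had a log2 change of 0.20 and did not pass. Snora24, whose human counterpart guides pseudouridylation of 18S ribosomal RNA, was at 10.1, 8.07 and 6.32 TPM in WT and 22.6, 26.1 and 20.04 TPM in null libraries (1.40 ± 0.18, adjusted p = 0.0016). Snora61 was at 57.0, 72.4 and 44.3 TPM against 146, 134 and 144 TPM (1.30 ± 0.16, adjusted p = 0.00142), and here the host Snhg12 rose as well, by 0.70. The null libraries lay far above the WT libraries for each of these members. Snora31, in the host Tpt1, rose from 40.1, 32.2 and 32.7 TPM to 77.3, 86.8 and 67.4 TPM (1.12 ± 0.13, adjusted p = 0.000923). Snora17, with 2.87, 3.97 and 0.863 TPM in WT and 6.98, 11.5 and 8.31 TPM in null libraries, had the largest Snora change (1.57 ± 0.38, adjusted p = 0.0159), and its call was lost without null replicate 2. Snora30 (1.43) was at 0.756, 0.188 and 0.239 TPM in WT and 3.48, 1.99 and 2.77 TPM in null libraries, so it too was tested only through the null libraries. Snora70, as abundant as Snora31 in WT, was at 39.6, 37.5 and 34.9 TPM in WT and 31.8, 48.1 and 33.4 TPM in null libraries, which overlapped. Snora7a (0.01), Snora57 (−0.09) and Snora34 (0.19) overlapped as well, and none of these 4 passed.

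Further box C/D members rose. Snord53 was at 4.65, 7.77 and 4.50 TPM in WT and 18.4, 14.4 and 9.62 TPM in Lin28a-null libraries (1.18 ± 0.28, adjusted p = 0.0147). Snord110, in the host Nop56 that encodes a core protein of the C/D particle, rose by 1.17, and Nop56 itself by 0.78. Snord17, a long C/D snoRNA, was at 6.65, 8.34 and 7.77 TPM in WT and 13.2, 15.4 and 15.2 TPM in null libraries, with no overlap (0.86 ± 0.14, adjusted p = 0.00334). Snord12, Snord49a and Snord49b rose by 0.71, 0.71 and 0.72, and the host of the last pair, 2410006H16Rik, fell by 0.60. Snord35b (1.40) passed as well, but its call was lost whichever null replicate was left out, and without WT replicate 3.

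Of the members named for precursor cleavage or for the study's oligonucleotides, Snora73a passed with a log2 change of 0.47 (adjusted p = 0.0455), a call that was lost whichever of the 6 libraries was left out. Snora16a with the identifier ENSMUSG00000065097, in the same host as Snora61, rose by 0.73 (adjusted p = 0.0206). It shared 136 of 137 aligned bases with the other Snora16a identifier, and Snora73a shared 198 of 205 with Snora73b. Reads that fit both copies of a pair are left out, so the level of each copy is uncertain here too. The only member that fell was Snord80, at 54.5, 47.7 and 50.1 TPM in WT and 19.7, 26.4 and 21.3 TPM in null libraries. It dropped in every null library (−1.15 ± 0.12, adjusted p = 0.00079), and its host Gas5 fell by 1.08 on the log2 scale. Snord80 overlaps an exon of Gas5 over its whole length. The values are those of the identifier ENSMUSG00000105780. A second identifier with the same symbol at this locus reached no more than 0.0334 TPM in any ES library.

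Changes of members and hosts were set side by side. Of the 67 tested members with a tested host, 56 had a change above that of the host, and the median host change was 0.06. Spearman's rho between member and host changes was 0.28 over these 67 members in 53 hosts, which share libraries and in part hosts. Of the 25 members that rose, 7 had a host that rose, 2 a host that fell and 15 a host that did not pass, and 1 had no tested host. Among members that lie wholly outside host exons 14 of 38 rose, and among those wholly inside 8 of 24.

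**Figure D3:**
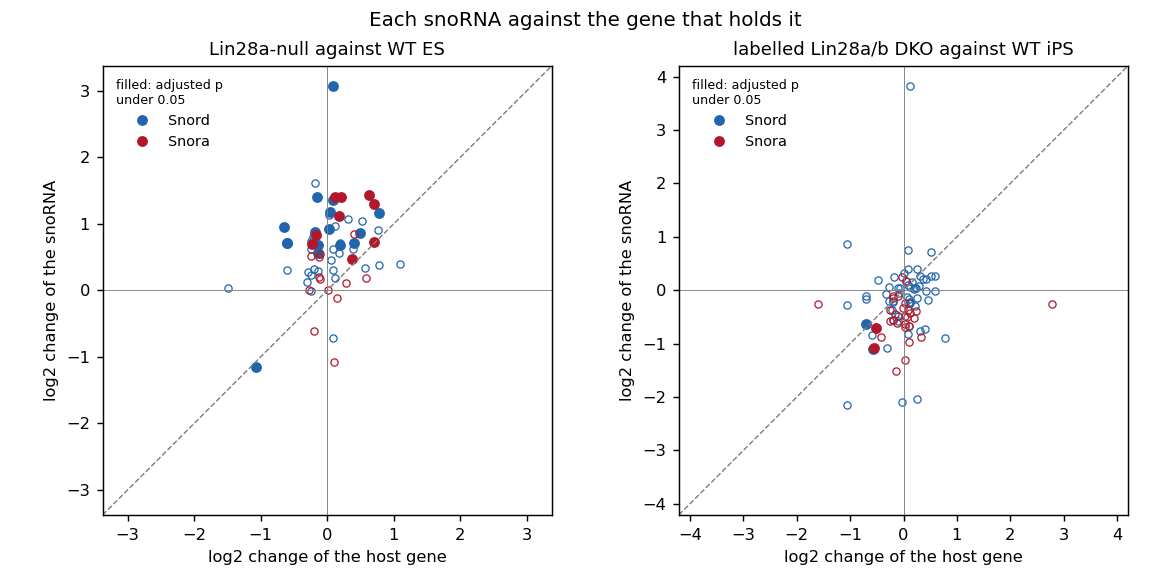
log2 change of each tested snoRNA (vertical) against that of its host gene (horizontal), in TPM + 1, for Lin28a-null against WT ES cells and for the iPS cells labelled DKO against WT iPS cells, with the diagonal where both are equal. In the ES panel 56 of 67 members lie above the diagonal, and in the iPS panel 26 of 90.

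The count of risers moved with single libraries: it was 15 without Lin28a-null replicate 1 and 13 without replicate 2. In both of these runs fewer of all tested genes rose as well than with every library. Whether the snoRNA count dropped by more than that of all genes was not tested. Snord14e, Snora24, Snora31, Snora41, Snora61, Snord17, Snord58b and Snord110 kept their calls without each library in turn, as did the fall of Snord80. Snord14c and Snora30 kept theirs too, but they entered the test only through the null libraries, where they were high, so this adds no support. Snord12, Snord49a, Snord53, Snora16a and Snora68 lost theirs without null replicate 2. Fibroblast and feeder markers moved with this comparison: 16 of the 17 listed, collagens and Thy1 among them, rose, with a median log2 change of 1.84, and their summed level was between 1644 and 3168 TPM in WT and between 4109 and 5502 TPM in Lin28a-null libraries. RNAs without a poly-A tail moved with it too: they summed to between 12.6 and 18.4 TPM in WT and between 18.7 and 41.2 TPM in null libraries, and 2 of the 5 tested, Rny1 and Rpph1, rose. Trophectoderm markers, of which 1 of 5 tested rose and 2 fell, summed to between 129 and 154 TPM in WT and between 84.6 and 86.5 TPM in null libraries. The part of any of these lists in the snoRNA changes was not tested.

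The libraries labelled Lin28b-null were compared with the same WT libraries, so the 2 comparisons are not independent. Of 69 tested members 18 rose (11 Snord and 7 Snora) and 1 fell, against 13.4% and 15.1% of all genes. The median log2 change was 0.34 for Snord and 0.39 for Snora, against −0.01 over all genes, and 43 of the 69 changes were positive. Every library labelled Lin28b-null lay above every WT library for 22 members, against 22.1% of all genes. Of the 69, 6 passed the filter through 1 group only, Snord14c being the 1 riser among them, and of the 63 members averaging 1 TPM or more in both groups 17 rose, against 13.3% of all such genes. Fibroblast and feeder markers did not rise here, with 0 of 17 higher by the test and 1 lower. Trophectoderm markers summed to between 84.0 and 99.1 TPM, below every WT library, with 1 of 5 risen and 1 fallen. Of the RNAs without a poly-A tail 0 of 4 tested rose and 0 fell, with a median of −0.18. The part of these lists was not tested.

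Snord12 showed the largest rise. It was at 46.6, 56.1 and 36.4 TPM in WT and at 233, 225 and 260 TPM in the libraries labelled Lin28b-null (2.36 ± 0.15, adjusted p = 0.000129). Its host Zfas1, in whose exon it lies, rose by 1.36, from 175, 162 and 155 TPM to 406, 411 and 447 TPM. Both were far above every WT library. The members of 2410006H16Rik rose together while the host had a log2 change of −0.20 and did not pass. Snord49a was at 25.6, 38.8 and 24.6 TPM in WT and 86.0, 74.5 and 82.1 TPM in the labelled libraries (1.44 ± 0.17, adjusted p = 0.00136). Snord49b was at 20.7, 25.0 and 23.2 TPM against 53.0, 55.9 and 69.3 TPM (1.33 ± 0.13, adjusted p = 0.000678). For both, the groups were well apart. Snord65, the last of this host, was at 20.1, 12.1 and 6.82 TPM against 34.1, 31.8 and 36.2 TPM (1.44), and its call was lost without replicate 3 of the labelled libraries.

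Members of other hosts followed. Snord104, which has no host on its strand, was at 23.5, 27.9 and 24.4 TPM in WT and 61.9, 57.5 and 61.6 TPM in the labelled libraries (1.23 ± 0.10, adjusted p = 0.000306). Snord14c reached 5.68, 5.28 and 2.23 TPM (2.27 ± 0.31, adjusted p = 0.0022) and Snord14e 32.1, 26.2 and 26.5 TPM (1.44 ± 0.22, adjusted p = 0.00344), each above every WT library. Snora24 reached 19.3, 21.2 and 22.1 TPM (1.27 ± 0.18, adjusted p = 0.00233). Snora17 (1.53) and Snora21 (0.98) rose with lower levels, Snora43 rose by 0.94, and Snora7a in the ribosomal protein gene Rpl32 by 0.66. Snora16a (0.59) and Snora41 (0.46) passed, but Snora41 lost its call whichever of the 6 libraries was left out, and Snora16a in 5 of the 6 cases. Snora17 lost its call without replicate 2 or 3 of the labelled libraries. Snord53 was the only member that fell, to 1.52, 0.463 and 2.22 TPM (−1.51 ± 0.34, adjusted p = 0.0158), while its host Wdr43 rose by 0.36.

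**Figure D4:**
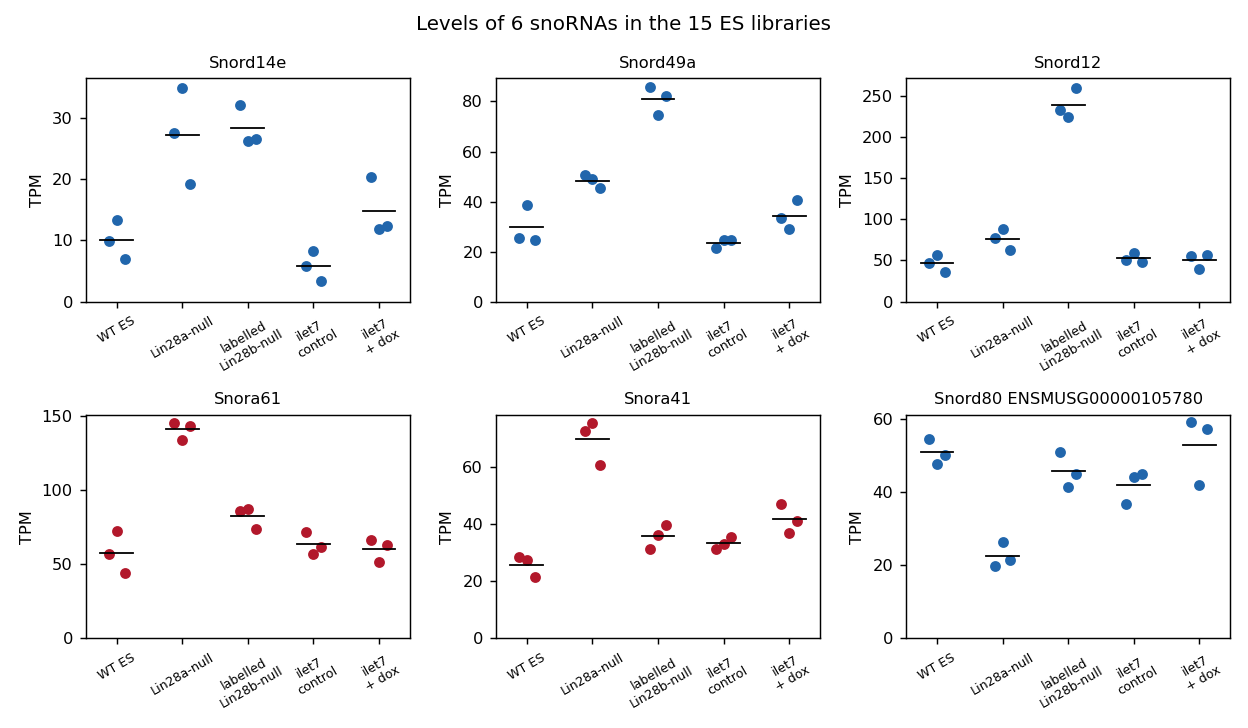
TPM of Snord14e, Snord49a, Snord12, Snora61, Snora41 and Snord80 in each ES library, by group. These were not chosen by level. Each point is 1 library and the bar is the group mean. Snord12 stands highest in the libraries labelled Lin28b-null (225 to 260 TPM) and Snora61 in Lin28a-null libraries (134 to 146 TPM).

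Of the risers, 12 were called in both comparisons, 48.0% of the Lin28a-null list and 66.7% of the list of the libraries labelled Lin28b-null: Snora16a, Snora17, Snora21, Snora24, Snora41, Snord110, Snord12, Snord14c, Snord14e, Snord42b, Snord49a and Snord49b. Over all 15173 genes tested in both comparisons 4.49% rose in both, 20.8% of the Lin28a-null list and 32.7% of the other. Since both lists use the same WT libraries, a WT library with low values enters both. Snord14c averaged under 1 TPM in WT and entered each list only through the libraries where it was high. The null lines were therefore also tested against each other, without WT libraries. Of 71 tested members 11 were higher in Lin28a-null libraries and 7 lower, against 25.8% and 21.1% of all genes, 46.9% together. In this contrast 17 of 17 fibroblast and feeder markers were higher in Lin28a-null libraries, with a median log2 difference of 1.87. Of the RNAs without a poly-A tail 2 of 5 tested were higher there as well, with a median of 1.12. The part of either list was not tested. Snord53 stood 2.69 higher on the log2 scale in Lin28a-null libraries (adjusted p = 0.00102), Snord70 1.47, Snora31 1.26, Snora41 0.95 and Snora61 0.77. Snord12 stood lower by −1.65 (adjusted p = 0.000143), Snord104 by −1.20, Snord65 by −1.13, Snord80 by −1.004 and Snord49a by −0.73. Snord12, Snord49a, Snord49b and Snora41 thus rose in both lines, by sizes that differed between them.

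Induction of let-7 in the ilet7 line asked whether the same snoRNAs move when let-7, the microRNA that LIN28 holds back, is raised. Few members passed. Of 73 tested, 3 rose and 1 fell, against 13.3% and 5.68% of all genes. The median log2 change was 0.13 for Snord and −0.06 for Snora, against 0.06 over all genes. Fibroblast and feeder markers moved with doxycycline, with 8 of 16 tested risen, a median of 0.46 and sums between 1244 and 1479 TPM without and between 1521 and 1777 TPM with it, and their part was not tested. Lin28a itself lay between 20.4 and 24.9 TPM without and between 6.26 and 7.32 TPM with doxycycline.

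Snord14e was at 5.79, 8.29 and 3.28 TPM without and 20.3, 11.9 and 12.3 TPM with doxycycline, without overlap (1.25 ± 0.32, adjusted p = 0.0371). Snord49a was at 21.3, 24.6 and 24.6 TPM against 33.6, 28.8 and 40.6 TPM (0.52 ± 0.13, adjusted p = 0.0364). These were the only members that rose in 3 of the 4 cell comparisons. The last riser was the identifier annotated as Dancr, at 0.120, 0.211 and 0.0124 TPM against 2.06, 0.685 and 3.25 TPM (1.33), which was tested only because it was high with doxycycline. Snord55 was the only member that fell, from 26.7, 31.2 and 39.0 TPM to 15.3, 12.01 and 21.8 TPM (−0.96 ± 0.22, adjusted p = 0.0286). These calls rested on single libraries: 0 members rose without control replicate 1 or 3 or without doxycycline replicate 1 or 3, and 7 rose without doxycycline replicate 2. Over all genes 1489, 1346, 1192, 1137 and 1556 rose in these runs in turn, against 2118 with every library. The fall of Snord55 was lost without control replicate 2 and without doxycycline replicates 1 and 2 in turn.

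The difference between the doxycycline effect and the Lin28a-null effect was tested directly. Of 72 members, 15 had a lower change with doxycycline and 1 a higher one, against 12.1% and 16.2% of all genes, 28.2% together, and the median difference was −0.57 for Snord and −0.49 for Snora. Of 17 fibroblast and feeder markers 11 also had a lower change with doxycycline, with a median of −1.37. Of the RNAs without a poly-A tail 1 of 5 tested had a lower change, with a median of −1.66. The part of either list was not tested. The differences were −1.81 for Snora17, −1.64 for Snora24, −1.37 for Snora61 and −1.09 for Snora41. Snord80 was the only higher one, at 1.46, and its host Gas5 differed by 1.05. The count of members that differed, 16, was 8 without Lin28a-null replicate 2 or without WT ES replicate 3, and 10 without WT ES replicate 1 or any 1 of the control ilet7 replicates. Over all genes 2598 had a higher and 1943 a lower change with every library. These were 2130 and 1544 without Lin28a-null replicate 2, and 2448 and 1807 without WT ES replicate 3.

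In the iPS cells labelled DKO most Snora members had a negative change, and the number of snoRNAs that fell was near the share of all genes. Of 98 tested members, 7 fell (2 Snord and 5 Snora) and 0 rose by limma, against 7.51% and 8.77% of all genes. Of the 35 Snora members 32 had a negative change, with a median of −0.49, and of the 63 Snord members 38, with a median of −0.14, against 0.04 over all genes. Every library labelled DKO lay below every WT library for 28 members, against 17.2% of all genes. DKO replicate 2 was the lowest library for each Snora member that fell.

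Snora70, whose human counterpart guides pseudouridylation of 18S ribosomal RNA, was at 308, 376 and 369 TPM in WT and 202, 106 and 207 TPM in the libraries labelled DKO (−1.09 ± 0.25, adjusted p = 0.0289). Its host Rpl10 fell too, by 0.55 on the log2 scale. Snora17 was at 416, 501 and 465 TPM against 293, 154 and 281 TPM (−0.98 ± 0.24, adjusted p = 0.034). Snora43 was at 737, 831 and 833 TPM against 552, 294 and 484 TPM (−0.90 ± 0.22, adjusted p = 0.0338). Snora57 was at 785, 864 and 889 TPM against 588, 335 and 536 TPM (−0.84 ± 0.20, adjusted p = 0.0321). None of these groups overlapped. Snora78, in the non-coding host Snhg9, was at 483, 506 and 613 TPM against 373, 249 and 363 TPM (−0.72), and Snhg9 fell by 0.51.

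Of the box C/D class, Snord49b was at 215, 185 and 197 TPM in WT and 135, 113 and 136 TPM in the libraries labelled DKO (−0.63 ± 0.10, adjusted p = 0.00709), and its host fell by 0.71. It was the only one of the 7 that kept its call without each library in turn. Snord61, in Rbmx, was at 8.44, 5.95 and 13.9 TPM against 4.36, 3.19 and 3.44 TPM (−1.10). The 5 Snora calls were lost whichever WT replicate was left out. The number that fell was 4 without WT replicate 1, 3 without WT replicate 2 and 1 without WT replicate 3. Over all genes 944, 814 and 872 fell in these runs in turn, against 1318 with every library. Snora17 and Snord49b thus rose in Lin28a-null ES cells and fell here, in tables that differ in their content of RNA without poly-A tails.

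**Figure D5:**
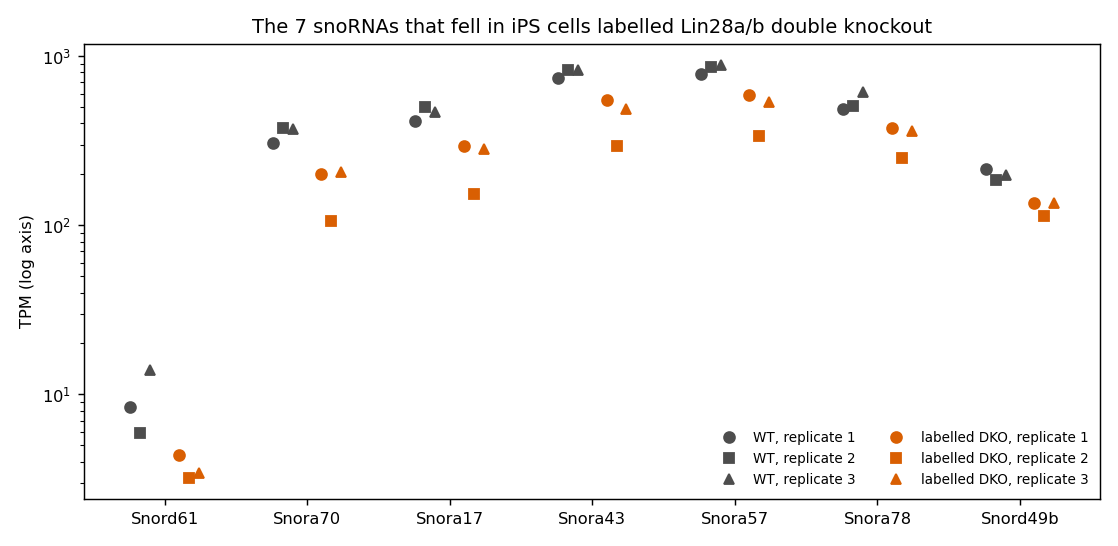
TPM of the 7 snoRNAs that fell in the iPS cells labelled DKO, in each of the 6 iPS libraries. The axis is logarithmic, colour marks the group and the marker shape the replicate number. For Snora70 the WT libraries lie between 308 and 376 TPM and those labelled DKO between 106 and 207 TPM.

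Members of precursor cleavage, Snord13 and Snord17 did not pass here. Snord118 was at 145, 239 and 315 TPM in WT and 135, 82.9 and 141 TPM in the libraries labelled DKO (−0.92, adjusted p = 0.090), without overlap. Snord22 was at 78.7, 196 and 383 TPM against 72.1, 13.1 and 84.8 TPM (−2.03, adjusted p = 0.131), with overlap and a wide spread. The changes were −0.47 for Snord13, −0.59 for Snora73b and −0.18 for Snord17, none of them past the threshold. Snora24 (−1.51, adjusted p = 0.053) and Snora16a (−0.68, adjusted p = 0.076) lay just outside it. The Snord14 copies summed to between 503 and 519 TPM in WT and to 497, 286 and 435 TPM in the libraries labelled DKO. Of 90 members with a tested host, 26 had a change above that of the host, with Spearman's rho 0.25 over these members in 71 hosts. Fibroblast and feeder markers moved with this comparison as well, with 5 of 17 higher by the test and summed levels between 4030 and 5974 TPM against 2691 to 4129 TPM. The other RNAs without poly-A tails overlapped between the groups (26287 to 32154 against 26817 to 34691 TPM), and 1 of 15, Terc, an H/ACA RNA of telomerase, fell by 0.92 on the log2 scale. Trophectoderm markers were lower in the libraries labelled DKO: 4 of the 5 tested fell and 1 rose, with a median of −1.06, and they summed to between 50.7 and 57.4 TPM against 115 to 123 TPM. The part of any of these lists was not tested.

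Some members jumped between replicates of a group, with the highest library at 5 TPM or more and at least 10 times the lowest. In the ES table this held for 12 of the 30 members that overlap a host exon and reach 5 TPM, and for 1 of the 33 outside host exons, Snord70. In the iPS table it held for 8 of 38 and for 0 of 46. Snord57, for example, was at 0.212, 21.1 and 14.1 TPM in WT ES libraries. Snord21 was at 2.11, 3.06 and 217 TPM in WT iPS libraries. Snord100 stayed between 0.850 and 0.966 TPM in WT iPS libraries and was at 127, 79.9 and 0.959 TPM in those labelled DKO, the largest fitted change among the iPS members (3.83 ± 1.44), which did not pass (adjusted p = 0.118). Among the members called in the cell comparisons, those that jumped were Snord35b in the ES table and the identifier annotated as Dancr. These thresholds were set after the values were seen.

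The proteins that build and process the snoRNA particles were read from the same fits. Of the 4 core proteins of the C/D particle, fibrillarin, Nop56, Nop58 and Snu13, only Nop56 passed, with 0.78 in Lin28a-null and 0.71 in the libraries labelled Lin28b-null, and 0 of 4 passed in the other cell comparisons. Of the 4 H/ACA core proteins, Nop10 (0.38) and the pseudouridine synthase Dkc1 (0.29) rose in Lin28a-null cells, and Nhp2, Nop10 and Dkc1 in the libraries labelled Lin28b-null (0.24, 0.50 and 0.26). With doxycycline Nop10 and Gar1 fell by 0.33 and 0.41 on the log2 scale, and in the iPS cells labelled DKO Nop10 rose by 0.55. Of 14 assembly and transport factors, 3 rose and 3 fell in Lin28a-null cells, where Nolc1, a nucleolar chaperone of snoRNA particles, rose by 0.81 and Coil fell by 0.49. In the libraries labelled Lin28b-null 5 rose, Phax (0.44), Nolc1 (0.38), Znhit3 (0.80), Coil (0.39) and Znhit6 (0.41), and 0 fell, and with doxycycline 0 rose and Ruvbl2 fell by 0.30. In the iPS cells labelled DKO 2 rose, Coil by 1.44 and Znhit3 by 0.67. Of 14 processing and decay factors, 6 rose and 1 fell in Lin28a-null cells, with Zcchc7 of the nuclear exosome adaptor at 0.99 and the deadenylase Parn at −0.49, and 0 passed in the iPS comparison. In the libraries labelled Lin28b-null 5 rose, Zcchc7 by 0.66 among them, and Parn fell by 0.36, and with doxycycline 2 rose and 0 fell. The shares of all genes that rose or fell are those given with each comparison, and nothing particular to these lists was tested.

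In the embryo pools, with 1 pool per group and so no test, 49 members reached a mean of 1 TPM. Of these, 7 were at least 2-fold higher in siLin28 embryos and 6 at least 2-fold lower, against 8.28% and 7.31% of 14875 genes. All 6 lower members, Snora7a among them, were under 1 TPM in the siLin28 pool. Of the higher members, Snora33, Snora34, Snora52 and Snord59a were under 1 TPM in the control pool. Such members passed the filter only through the pool where they were high, so their counts add no support. The median log2 difference was 0.41 for Snord and 0.28 for Snora, against 0.03 over all genes. Snora33 was at 0.420 TPM in the control and 10.6 TPM in the siLin28 pool, and Snora33 was also among the members that jumped between ES replicates. Snora41, a riser in both ES lines, was at 11.7 and 31.1 TPM. Snora7a went the other way, at 16.2 and 0.413 TPM, while Snord42b was at 16.0 and 9.24 TPM and Snord34 at 21.2 and 12.9 TPM. Fibroblast and feeder markers summed to 11.8 and 15.2 TPM in the embryo pools.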

How the data were processed

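RNA from 23 mouse samples in 9 groups was sequenced by the study as poly-A selected (cells) or oligo-dT amplified (embryos) libraries. Per the labels and the study's methods, the authors called bases with CASAVA 1.8, trimmed reads with Trimmomatic, aligned them to mm10 with HISAT2, removed duplicates with Picard, kept uniquely mapped reads only, which leaves out reads shared by near-identical snoRNA copies, and deposited TPM per gene from StringTie, in 3 tables of 53715 genes, 53620 of which matched GENCODE M21. TPM keeps no depth, and each column summed to between 999488 and 999886, so counting error is unknown.

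Groups came from the labels. Within each table, log2(TPM + 1) was fitted in limma 3.58.1 (R 4.3.3) with a variance trend, over the compared groups only (for the difference of 2 effects, over the 4 groups), for genes averaging 1 TPM or more, with Benjamini-Hochberg adjustment over all genes tested. The test is two-sided, ± is the SE, n = 3 per cell group, and rose or fell means an adjusted p under 0.05. Embryo pools got no test. The script was tested on simulated data.

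Boxes were searched on the snoRNA's own strand, and identity came from pairwise alignment (80% or more counted as near copies). Named members were the precursor-cleavage snoRNAs, Snord13, Snord17, the imprinted members and the study's oligonucleotide targets. Also named were the 6 largest changes per class and direction past the threshold. The 4 largest each way in embryos, with a mean of at least 5 TPM, were named as well. So were the 5 highest per class and table, members called in at least 3 comparisons, and hosts. Members and lists were chosen with earlier results of these data known, and the sums over Snord14 copies after their values were seen. Alternatives were another pseudocount, filter, scaling or fit, a replicate block and leaving out each library. All deposited value columns were used.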

Additional observations from a re-analysis of the deposited data

Results flagged for a closer look

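For 16 snoRNAs the doxycycline effect in the ilet7 line differed from the Lin28a-null effect by the tested contrast in limma (adjusted p under 0.05). The difference in log2 change, doxycycline minus Lin28a-null, was −1.81 for Snora17, −1.78 for Snord14c, −1.75 for Snord55, −1.72 for Snora30, −1.64 for Snora24, −1.37 for Snora61 and −1.09 for Snora41. It was −0.91 for Snora16a, −0.86 for Snord35a, −0.81 for Snord42b, −0.78 for Snord12, −0.74 for Snord58b, −0.70 for Snord49b, −0.69 for Snora68 and −0.60 for Snord17. It was 1.46 for Snord80, the only one with a higher change under doxycycline. Snord14c and Snora30 passed the filter of the Lin28a-null comparison only through the null libraries, where they were high.

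For 10 snoRNAs every Lin28a-null ES library lay above every WT ES library, and every iPS library labelled DKO lay below every WT iPS library. Of the 70 snoRNAs tested in both comparisons this was 14.3%, and of the 15012 genes tested in both it was 1.44%. This difference between the tables was not tested. Only Snora17 and Snord49b passed the threshold in both comparisons. The others did not pass in the iPS cells, and Snora52 and Snord23 did not pass in the ES cells either. The iPS change beside the ES change was −0.68 beside 0.73 for Snora16a, −0.98 beside 1.57 for Snora17, −1.51 beside 1.40 for Snora24, −0.52 beside 1.12 for Snora31 and −0.66 beside 0.55 for Snora52. It was −0.60 beside 0.70 for Snora68, −0.56 beside 1.35 for Snord14e, −1.09 beside 0.27 for Snord23, −0.72 beside 1.40 for Snord35b and −0.63 beside 0.72 for Snord49b. The level of RNAs without poly-A tails differs between these tables, and its part was not tested.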

How the results depend on the processing

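TPM values carry no read depth, so low members cannot be given a counting error, and 70 of 141 members could not be tested in the Lin28a-null comparison. Among the named members no rise became a fall, and no fall a rise, under any alternative run. This does not cover the sign of changes that did not pass. Pseudocounts of 0.1 and 0.5, median-of-ratios scaling and rescaling without RNAs that lack poly-A tails left every count of calls within 1.5 times its value. Quantile normalization gave 2 falls in Lin28a-null cells and 1 rise with doxycycline, against 3526 falls and 1489 rises over all genes. A filter at a mean of 5 TPM gave 0 falls for the libraries labelled Lin28b-null, 1 rise in the iPS cells labelled DKO, and 2 higher and 1 lower members in embryos. With no filter there were 2 falls for the libraries labelled Lin28b-null, 1 rise and 0 falls with doxycycline, 1 fall in the iPS cells labelled DKO, and 9 members in the contrast of the doxycycline and Lin28a-null effects. A fit over all libraries of the table gave 2 falls for the libraries labelled Lin28b-null and 0 falls with doxycycline. Over all genes that fit gave 3389 and 547 falls in turn. Without the variance trend 1 member rose with doxycycline and 1 fell in the iPS cells labelled DKO. Over all genes the filter at 5 TPM gave 1953 falls for the libraries labelled Lin28b-null and 1133 rises in the iPS cells labelled DKO. With no filter 1585 genes rose and 608 fell with doxycycline, and 1122 fell in the iPS cells labelled DKO. In the same setting 2046 fell for the libraries labelled Lin28b-null, and in the contrast of effects 2367 were higher and 2234 lower. Without the variance trend 1967 genes rose with doxycycline and 1166 fell in the iPS cells labelled DKO. The causes of these shifts were not tested. Without Snord12 the mean log2 Snord sum of the libraries labelled Lin28b-null was 0.52 above that of WT.

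Leaving out single libraries gave 13 to 28 rises and 1 to 1 falls in Lin28a-null cells, 12 to 19 and 1 to 2 for the libraries labelled Lin28b-null, 0 to 7 and 0 to 1 with doxycycline, and 0 to 1 and 1 to 8 in the iPS cells labelled DKO. It gave 15 to 20 members that differed between the null lines and 8 to 16 in the contrast of effects. Of the named members in these single-library runs, 798 values kept their side of the threshold, 160 lost it and 10 gained it.

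Replicate numbers did not pair the libraries, since same-numbered libraries correlated between −0.122 and 0.12 in their deviations. A replicate block gave 29 rises in Lin28a-null cells, 19 for the libraries labelled Lin28b-null, 1 rise with doxycycline, and 1 rise and 4 falls in the iPS cells labelled DKO, and 12 members in the contrast of effects. Over all genes the block gave 2697 rises in Lin28a-null cells, 1668 for the libraries labelled Lin28b-null and 1231 with doxycycline. It gave 1047 rises and 876 falls in the iPS cells labelled DKO, and 2434 higher and 1782 lower changes in the contrast of effects.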
